A study of Mus musculus with 17 samples.

Results

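Lymphoid tissue inducer (LTi) cells are innate lymphoid cells of the gut, and the comparison described here sets LTi cells with a high surface level of PD-1 against LTi cells without it. It covers 8 of the 17 libraries of the series, the 4 titled PD1_Hi and the 4 titled PD1_Neg. Its main outcome with edgeR was a single gene among 18862 tested with genotype as a covariate. Palld, which encodes the actin-associated scaffold palladin, was higher in PD-1high cells. It stood at 613 ± 191 CPM (reads of the gene per 1e6 reads counted) against 90.0 ± 19.5 CPM (SD, n = 4 libraries each). No other gene passed an adjusted p of 0.05 with edgeR, a share of 0.0053% called. The count depended on the method, as DESeq2 called many more genes and limma-voom none. Palld also lost its call in several fits that left out 1 library. Genes separated between the gates without passing that threshold included Gpr35, Cd4, Itgal and Il2rb on the high side and Atf3, Dusp1, Myc and Il22ra2 on the low side.

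The cells came from the colon lamina propria of adult, age-matched C57BL/6 mice that had drunk 3% (w/v) dextran sulfate sodium (DSS), an agent that injures the colonic epithelium, for 6 days and had then recovered without it for 1 day. Pdcd1 is the gene of PD-1, and the mice were Pdcd1hu/+, titled WT, or Pdcd1hu/-, titled KO. Every library therefore came from DSS-treated mice with a Pdcd1hu allele, and no untreated mice and no mice without that allele enter the comparison. The sort took live cells that carried CD127, c-Kit and CCR6 and lacked lineage markers and KLRG-1, and split them into a gate with high human PD-1 (huPD-1high) and a gate without it (huPD-1-). These 4 groups, 2 genotypes by 2 gates, held 2 libraries each. The labels do not say whether the 2 libraries of a group came from separate mice or pools, so p-values measure the spread between these libraries, which may be technical. They also do not describe how the hu allele was built.

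PD-1 is an inhibitory receptor best known from T cells. After binding its ligands PD-L1 (Cd274) or PD-L2 (Pdcd1lg2), it recruits phosphatases to its cytoplasmic tail and dampens signalling through PI3K and AKT. LTi cells carry the IL-7 receptor (Il7r), c-Kit and CCR6, often express Cd4, and make IL-22 and IL-17, cytokines that sustain the epithelial barrier. Early response genes such as Fos, Atf3 and Myc are transcribed within minutes to hours of a stimulus, and they rise in lymphocytes with activation.

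Values below are CPM scaled by TMM, which corrects library totals for composition, unless another scale is named. Groups are given in the order Pdcd1hu/+ replicates 1 and 2, then Pdcd1hu/- replicates 1 and 2. "Separated" means that all 4 PD-1high libraries lay on the same side of all 4 PD-1neg libraries. Of all tested genes, 2.75% were separated upward in PD-1high cells (518 genes) and 1.67% downward (315 genes), and 4.23% and 3.35% had an unadjusted p under 0.05 in those directions. The median log2 fold change of all tested genes was 0.03.

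The libraries were alike in size and unlike in composition. Totals ran from 16479396 to 22290026 counts, with 15953 to 23927 genes detected and a floor of 3 counts at 0.135 to 0.182 CPM of the library total, which covers counting error only. The correlation of log2 CPM between the 2 libraries of a group was 0.717 to 0.792. In each group 1 library was rich in the plasma cell transcript Igkc and 1 was poor in it, from 12172 to 53294 CPM of the library total against 129 to 249 CPM. The Igkc-rich libraries were Pdcd1hu/+ PD-1high replicate 1, Pdcd1hu/+ PD-1neg replicate 2, Pdcd1hu/- PD-1high replicate 2 and Pdcd1hu/- PD-1neg replicate 1.

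The genes that define the sort were checked first. Kit stood at 470, 526, 664 and 606 CPM in PD-1high and at 563, 319, 499 and 416 CPM in PD-1neg libraries. Il7r ran from 608 to 1297 CPM in PD-1high and from 761 to 1525 CPM in PD-1neg libraries. Both were present in every library and overlapped between the gates. Ccr6 was lowest in Pdcd1hu/- PD-1high replicate 1, with 70.9, 21.1, 12.9 and 94.9 CPM in PD-1high against 147, 32.1, 85.8 and 248 CPM in PD-1neg libraries. Its log2 fold change of -1.29 (SE 0.80) was -3.55 over the 4 Igkc-poor and 0.63 over the 4 Igkc-rich libraries. Klrg1, whose protein the sort excluded, was low but present, from 0.529 to 21.4 CPM in PD-1high and from 4.53 to 37.2 CPM in PD-1neg libraries. Of 20 genes that mark LTi identity, 12 lay above 0 with a median log2 fold change of 0.14, and Cd4 and Il2ra were separated upward. The list had opposite directions in the Igkc sets, with 6 of 20 above 0 (median -0.37) over the 4 Igkc-poor libraries and 19 of 20 (median 0.54) over the 4 Igkc-rich libraries.

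Pdcd1 (ENSMUSG00000026285, chromosome 1, 94038305 to 94052553 in GRCm38) followed the gate. It stood at 248, 390, 527 and 540 CPM in PD-1high and at 8.02, 25.4, 81.9 and 188 CPM in PD-1neg libraries. The gates did not overlap, and the Pdcd1hu/- PD-1neg libraries had more Pdcd1 than the Pdcd1hu/+ PD-1neg libraries. The log2 fold change was 3.12 (SE 0.64), at 4.26 in Pdcd1hu/+ and 1.98 in Pdcd1hu/- cells, and it did not pass (edgeR adjusted p = 0.404). The difference between the genotypes did not pass either (interaction -2.28, SE 0.78, edgeR adjusted p = 1.0). The counted gene is the mouse gene, while the antibody read the human protein. As the labels do not describe how the hu allele was built, whether these counts include transcripts of the sorted receptor is not known.

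Palladin organises actin filaments with partners such as alpha-actinin and VASP. Palld (ENSMUSG00000058056, protein coding, chromosome 8, 61511433 to 61902690 in GRCm38) stood at 849, 433, 686 and 487 CPM in PD-1high and at 110, 64.1, 99.2 and 87.3 CPM in PD-1neg libraries. The lowest PD-1high library thus lay several-fold above the highest PD-1neg library, and the genotypes overlapped within each gate. The log2 fold change was 2.77 (SE 0.29, edgeR adjusted p = 0.0129), at 2.88 in Pdcd1hu/+ and 2.65 in Pdcd1hu/- cells, an interaction of -0.23 (SE 0.58, edgeR adjusted p = 1.0). The call was lost with limma-voom (log2 fold change 2.71, adjusted p = 0.0713). It was also lost without Pdcd1hu/+ PD-1high replicate 1, either Pdcd1hu/- PD-1high replicate or either Pdcd1hu/- PD-1neg replicate (edgeR adjusted p = 0.0705, 0.0606, 0.0595, 0.0719 and 0.13). The log2 fold change stayed between 2.52 and 2.95 in all 8 fits that left out 1 library.

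The other actin genes were not separated. Of 33 tested members of a list around palladin and the actin cytoskeleton, 15 lay above 0 with a median of -0.08, and only Palld was separated. The median was 0.39 over the 4 Igkc-poor and -0.32 over the 4 Igkc-rich libraries. Evl, an Ena/VASP family member, had the next smallest p, at -0.87 (SE 0.35, edgeR adjusted p = 0.656), from 22.5 to 52.6 CPM in PD-1high and from 34.0 to 93.7 CPM in PD-1neg libraries. Zyx, which encodes the focal adhesion protein zyxin and was named after its values were seen, stood at -0.74 (SE 0.31).

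**Figure D1:**
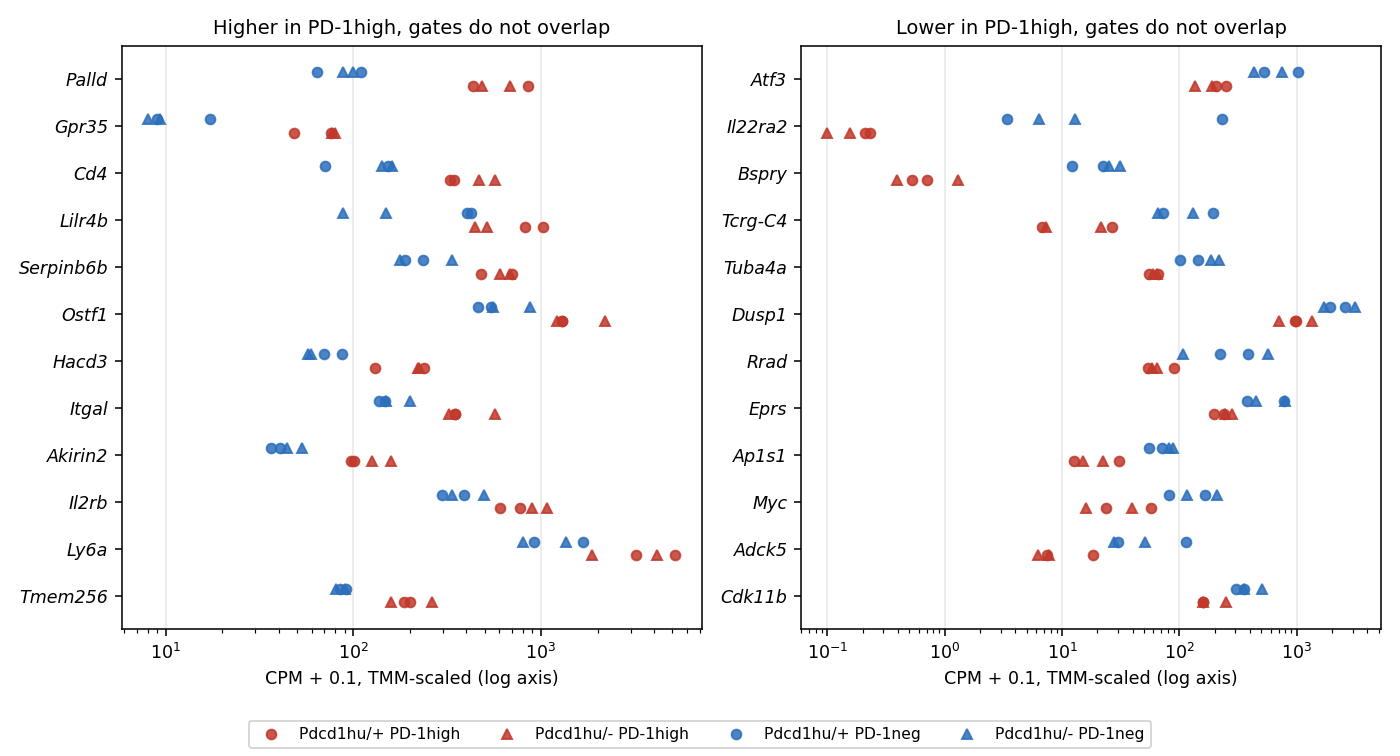
CPM plus 0.1 (TMM-scaled, log axis) in each of the 8 libraries for the 12 genes higher and the 12 lower in PD-1high cells with the smallest p among separated genes with a mean of at least 10 CPM. Red points are PD-1high and blue points PD-1neg libraries, circles Pdcd1hu/+ and triangles Pdcd1hu/-; Palld shows a wide gap, while Lilr4b and Ly6a leave a narrow one.

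The 24 genes of that plot were chosen for their separation, so the separation itself is a description. It also fixes their sign in any fit on fewer of these libraries. DESeq2, on the same 8 libraries, called all 24, while edgeR called Palld alone. Among those higher in PD-1high cells were receptors and adhesion molecules. Gpr35, a G protein-coupled receptor of the gut immune system (chromosome 1, 92950865 to 92986391), stood at 47.9, 76.0, 76.4 and 79.9 CPM in PD-1high and at 8.83, 17.0, 9.16 and 7.94 CPM in PD-1neg libraries. Its log2 fold change was 2.73 (SE 0.43, edgeR adjusted p = 0.177), near that of Palld at a lower level of expression. Itgal, the alpha chain of the integrin LFA-1, stood at 348, 346, 325 and 568 CPM in PD-1high and at 136, 147, 199 and 148 CPM in PD-1neg libraries. Both gates were tight apart from Pdcd1hu/- PD-1high replicate 2, and the log2 fold change was 1.33 (SE 0.24, edgeR adjusted p = 0.246). Of 20 chemokine and homing receptors, only Gpr35 and Itgal were separated, 7 lay above 0, and the median was -0.21. Cxcr6, named after its values were seen, ran the other way at -0.96 (SE 0.31).

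Cd4 (chromosome 6, 124864692 to 124888221) marks a subset of adult LTi cells. It stood at 325, 343, 566 and 465 CPM in PD-1high and at 152, 70.7, 161 and 141 CPM in PD-1neg libraries. The lowest PD-1high library held about 2 times the level of the highest PD-1neg library, and the log2 fold change was 1.68 (SE 0.26, edgeR adjusted p = 0.177). Genes of the T cell receptor complex differed among themselves. Cd3e, on the scale of library totals, had 4.13, 14.0, 0.121 and 83.1 CPM in PD-1high and 22.6, 109, 53.3 and 96.1 CPM in PD-1neg libraries. The library with the most Cd4 thus had nearly no Cd3e, while that with the next most Cd4 had the most Cd3e of the PD-1high gate. Trac, the alpha chain constant region, had 29.6, 56.2, 4.42 and 56.5 CPM of the total in PD-1high and 9.75, 33.8, 8.90 and 22.5 CPM in PD-1neg libraries. Of 16 tested T cell markers 7 lay above 0, with a median of -0.40 and a summed level of 1032 to 1618 CPM of the total in the PD-1high gate and 1135 to 1965 CPM in the other. Cd6 and Tcrg-C1 were separated upward and none downward, and Cd6, a T cell surface receptor named after its values were seen, had 9.46, 3.44, 0.411 and 8.23 CPM against 0, 0, 0 and 0.338 CPM. The part of T cells in the Cd4 difference was not tested. In bulk RNA of this kind, more cells with Cd4 and more Cd4 per cell cannot be told apart.

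The receptor chains for IL-2 and the stem cell antigen Sca-1 were also separated upward. Il2rb, the beta chain shared by the IL-2 and IL-15 receptors, stood at 769, 607, 897 and 1072 CPM in PD-1high and at 386, 295, 337 and 498 CPM in PD-1neg libraries (log2 fold change 1.13, SE 0.22, edgeR adjusted p = 0.293). Il2ra, the alpha chain, was separated by a small gap, at 356, 423, 325 and 520 CPM against 312, 143, 246 and 248 CPM (0.78, SE 0.27, edgeR adjusted p = 0.656). Ly6a, the gene of Sca-1, stood at 5199, 3224, 1872 and 4161 CPM against 922, 1668, 1361 and 804.02 CPM (1.59, SE 0.31, edgeR adjusted p = 0.293). Ly6a belongs to a family of similar genes in a cluster on chromosome 15, and reads shared among them may affect its counts.

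Immunoreceptors and checkpoint receptors included genes separated in both directions. Lilr4b, an immunoreceptor, stood at 1023, 826, 444 and 516 CPM in PD-1high and at 425, 403, 148 and 87.9 CPM in PD-1neg libraries. Both Pdcd1hu/+ PD-1neg libraries lay just under the lowest PD-1high library, and the log2 fold change was 1.59 (SE 0.26, edgeR adjusted p = 0.206). Lilrb4a, a close copy, stood at 0.30 (SE 0.30), and as the counting could split reads between the copies, both values are uncertain. Lilr4b was placed in a list of inhibitory receptors, and whether it inhibits was not examined. Of 19 tested members of that list 12 lay above 0, with a median of 0.30 and Lilr4b the only separated member. The list median was 1.54 over the 4 Igkc-poor and -0.39 over the 4 Igkc-rich libraries. Of 20 checkpoint receptors and ligands, 9 lay above 0 with a median of -0.15 (0.17 over the 4 Igkc-rich libraries), Pdcd1 was separated upward and Cd96 downward. Cd96, a receptor for nectin-type ligands, stood at 75.2, 119.6, 75.8 and 73.8 CPM in PD-1high and at 256, 135, 153 and 281 CPM in PD-1neg libraries (-1.27, SE 0.31, edgeR adjusted p = 0.438). Ctla4, named after its values were seen, had a positive log2 fold change (1.83, SE 0.56, edgeR adjusted p = 0.637) with overlapping gates, from 66.4 to 388 CPM and from 43.2 to 96.3 CPM.

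The ligands of PD-1 were present in both gates, with overlapping levels. Cd274 ran from 37.0 to 83.8 CPM in PD-1high and from 29.0 to 68.4 CPM in PD-1neg libraries (0.47, SE 0.35), and Pdcd1lg2 from 17.1 to 32.0 CPM and from 10.04 to 25.4 CPM (0.72, SE 0.53). In the PI3K-AKT pathway below the receptor, 18 of 21 tested genes lay above 0, against 51.2% of all genes, with a median of 0.22. None of the 21 was called, and Fyn, a Src-family kinase, was the single separated member. Foxo1, the transcription factor that AKT keeps out of the nucleus, had 158, 240, 248 and 157 CPM in PD-1high and 70.1, 175, 90.8 and 111 CPM in PD-1neg libraries (0.85, SE 0.32, edgeR adjusted p = 0.656). Akt1 stood at 0.62 (SE 0.28). With library totals in place of TMM, which shifts the median of all genes from 0.03 to -0.09, the median of this list was 0.08. Over the 4 Igkc-poor libraries 11 of the 21 lay above 0, with a median of 0.07.

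Transcription factors of chronic stimulation were led by Tox2. Tox2, a relative of the T cell exhaustion factor TOX, stood at 176, 136, 182 and 179 CPM in PD-1high and at 40.1, 28.8, 20.6 and 101 CPM in PD-1neg libraries. Pdcd1hu/- PD-1neg replicate 2 came closest to the PD-1high range, and the log2 fold change was 1.87 (SE 0.43, edgeR adjusted p = 0.404). No other member of the list of 20 was separated, and Prdm1, which encodes Blimp-1, followed with overlapping gates (1.18, SE 0.59). Tox itself stood at -0.01 (SE 0.34). In the list 14 of 20 lay above 0 with a median of 0.23, against 6 of 20 and -0.48 over the 4 Igkc-poor libraries.

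The remaining genes higher in PD-1high cells came from varied classes. Ostf1, an adaptor first described in osteoclasts, stood at 1288, 1289, 1212 and 2204 CPM in PD-1high and at 463, 540, 552 and 874 CPM in PD-1neg libraries (1.31, SE 0.23). Serpinb6b, an intracellular protease inhibitor of a family with close copies, ran from 481 to 700 CPM and from 176 to 334 CPM (1.41, SE 0.25). Hacd3, a very long chain fatty acid dehydratase, ran from 130.0 to 237 CPM and from 57.2 to 87.1 CPM (1.58, SE 0.28). These 3 had an edgeR adjusted p of 0.246. Akirin2, a nuclear regulator of inflammatory genes, stood at 1.46 (SE 0.27, edgeR adjusted p = 0.263), and Tmem256, a small membrane protein, at 1.22 (SE 0.25, edgeR adjusted p = 0.336).

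Effector cytokines varied widely between libraries. Il22, the signature cytokine of LTi cells, stood at 39793, 7324, 8451 and 11661 CPM in PD-1high and at 10118, 2725, 4672 and 7439 CPM in PD-1neg libraries. The highest value was Pdcd1hu/+ PD-1high replicate 1, the gates overlapped, and the log2 fold change of 1.30 (SE 0.71, edgeR adjusted p = 0.787) was -0.16 over the 4 Igkc-poor libraries. Il17a ran from 6.23 to 264 CPM and from 17.4 to 390 CPM. Lif, an IL-6 family cytokine, was separated at 242, 41.3, 78.8 and 194 CPM against 30.7, 18.4, 34.3 and 16.6 CPM (2.47, SE 0.54, edgeR adjusted p = 0.39). Tnfsf11, which encodes RANKL and was named after its values were seen, stood at 0.70 (SE 0.28), with 825 to 1384 CPM and 399 to 1009 CPM. Il2, also named after its values were seen, was separated downward at 3.37, 3.96, 3.00 and 3.11 CPM against 8.45, 9.94, 143 and 9.69 CPM (-2.98, SE 0.99), with the highest value in Pdcd1hu/- PD-1neg replicate 1. Of 18 tested cytokines 11 lay above 0, with a median of 0.41 that was 0.10 over the 4 Igkc-poor libraries.

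Early response genes lay mostly on the low side, with none called. Of 30 members, 24 lay below 0 against 48.8% of all tested genes, with a median of -0.41. Among the 30, 5 were separated downward and none upward, against 1.67% and 2.75% of all tested genes. Over the 4 Igkc-poor libraries 11 of the 30 lay above 0, with a median of -0.68. Atf3, a stress-induced transcription factor of the ATF/CREB family (chromosome 1, 191170296 to 191218039), stood at 249, 203, 136 and 188 CPM in PD-1high and at 528, 1020, 428 and 755 CPM in PD-1neg libraries (-1.82, SE 0.28, edgeR adjusted p = 0.177). Dusp1, a phosphatase that switches off MAP kinases, stood at 987, 965, 1340 and 706 CPM against 2576, 1926, 1705 and 3118 CPM (-1.22, SE 0.25, edgeR adjusted p = 0.336). In both genes the PD-1neg libraries ranged more widely in CPM than the PD-1high libraries. For Dusp1 this was not so relative to the mean, with an SD of 642 at 2332 CPM against 260 at 999 CPM.

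Myc, which drives growth and ribosome production, stood at 23.7, 57.6, 15.7 and 39.3 CPM in PD-1high and at 80.6, 164, 208 and 115 CPM in PD-1neg libraries (-2.07, SE 0.45, edgeR adjusted p = 0.39). Fos and Fosb, subunits of AP-1 named after their values were seen, were the other separated members, at -0.94 (SE 0.23) and -0.64 (SE 0.23). Fos ran from 1614 to 2590 CPM in PD-1high libraries and from 2966 to 5455 CPM in the others. The summed level of the list was nearly the same in all 4 PD-1high libraries, from 16943 to 17936 CPM, and higher and spread in PD-1neg libraries, from 19870 to 39813 CPM. The median of the list stayed between -0.67 and -0.40 when any 1 library was left out. None of the 30 genes was called by edgeR.

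Of the 5 separated early response genes, 4 had a promoter window in the RefSeq table (GRCm38.p6), and Myc had none. These genes were picked for lying lower in PD-1high cells, so their shared direction is a description. Of the motifs searched, the core of the cyclic AMP response element, which ATF/CREB factors bind, was the only motif in all 4. It was chosen for marking after that search. Each line gives the 250 bases before the start site, 5′ to 3′, with TGACG or its reverse complement CGTCA in capitals, also where both overlap in the full element TGACGTCA.

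Atf3 (chr1:191183334-191183583, minus strand): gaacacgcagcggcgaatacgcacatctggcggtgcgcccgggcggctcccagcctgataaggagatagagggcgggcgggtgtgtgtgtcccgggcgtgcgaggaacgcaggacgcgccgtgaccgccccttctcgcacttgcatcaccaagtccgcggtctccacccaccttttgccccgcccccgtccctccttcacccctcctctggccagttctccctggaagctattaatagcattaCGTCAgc

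Dusp1 (chr17:26508473-26508722, minus strand): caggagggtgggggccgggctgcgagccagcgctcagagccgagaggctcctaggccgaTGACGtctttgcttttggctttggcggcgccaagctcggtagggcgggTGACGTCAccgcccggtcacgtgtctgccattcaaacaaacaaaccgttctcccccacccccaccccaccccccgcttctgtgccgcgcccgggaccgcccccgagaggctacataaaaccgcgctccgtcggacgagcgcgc

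Fos (chr12:85473640-85473889, plus strand): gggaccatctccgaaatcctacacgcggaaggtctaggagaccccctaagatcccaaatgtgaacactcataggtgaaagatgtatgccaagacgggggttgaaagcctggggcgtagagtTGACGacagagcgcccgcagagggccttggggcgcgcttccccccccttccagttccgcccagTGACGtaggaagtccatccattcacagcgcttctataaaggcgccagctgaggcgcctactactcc

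Fosb (chr7:19310046-19310295, minus strand): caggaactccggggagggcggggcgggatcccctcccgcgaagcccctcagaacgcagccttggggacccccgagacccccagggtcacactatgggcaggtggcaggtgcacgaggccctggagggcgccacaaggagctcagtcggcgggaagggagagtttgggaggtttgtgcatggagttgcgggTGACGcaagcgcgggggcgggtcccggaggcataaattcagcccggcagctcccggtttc

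Searched on both strands, the core was in 17.8% of 32851 windows of the same length and in 55.2% of the 29 windows of the early response list, which belong to 24 genes. The full element TGACGTCA, which contains the core, was in 1.55% of all windows and, among the 4 shown, in Dusp1. That element was in 6.90% of the early response windows. The AP-1 motif TGANTCA was in 6.75% of all windows, in 3.45% of the early response windows and in none of the 4. The CArG box, the motif of serum response factor, was in 1.47% of all windows, in 20.7% of the early response windows and in none of the 4. A match describes these letters in this window and is no evidence of binding.

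Heat-shock chaperones, which fold proteins under stress, lay below 0 in 14 of 15 cases with a median of -0.63. Summed, they made up 4652 to 5332 CPM of each PD-1high library and 6910 to 9207 CPM of each PD-1neg library, without overlap. Hspa8, the constitutive HSC70 chaperone, was the separated member, at 862, 1172, 1080 and 1149 CPM against 1290, 1656, 1982 and 1852 CPM (-0.66, SE 0.19, edgeR adjusted p = 0.537). Hsp90ab1 stood at -0.64 (SE 0.21). The list median stayed between -0.62 and -0.54 when any 1 library was left out.

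Genes of ribosome production and protein synthesis also leaned downward. Of 30 genes for building cytosolic ribosomes 27 lay below 0, with a median of -0.77 and sums of 1463 to 1582 CPM against 1649 to 4142 CPM. The highest sum was Pdcd1hu/- PD-1neg replicate 1, and without that library the median was -0.56. Over the 4 Igkc-poor libraries it was -0.24, with 10 of the 30 above 0. Ncl, the gene of nucleolin, was the separated member, at 222, 179, 104 and 181 CPM against 322, 231, 764 and 331 CPM (-1.20, SE 0.38, edgeR adjusted p = 0.63). Among 26 tested tRNA synthetases and translation factors, 18 lay below 0 with a median of -0.36. The median was -0.18 without Pdcd1hu/- PD-1neg replicate 1 or Pdcd1hu/- PD-1high replicate 1, and -0.13 over the 4 Igkc-poor libraries. Eprs, which charges tRNAs with glutamate and proline, was separated at 239, 198, 280 and 245 CPM against 780, 376, 447 and 795 CPM (-1.32, SE 0.28, edgeR adjusted p = 0.341). The translation factor Eif4a1 was the other separated member, also downward (-0.70, SE 0.27).

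**Figure D2:**
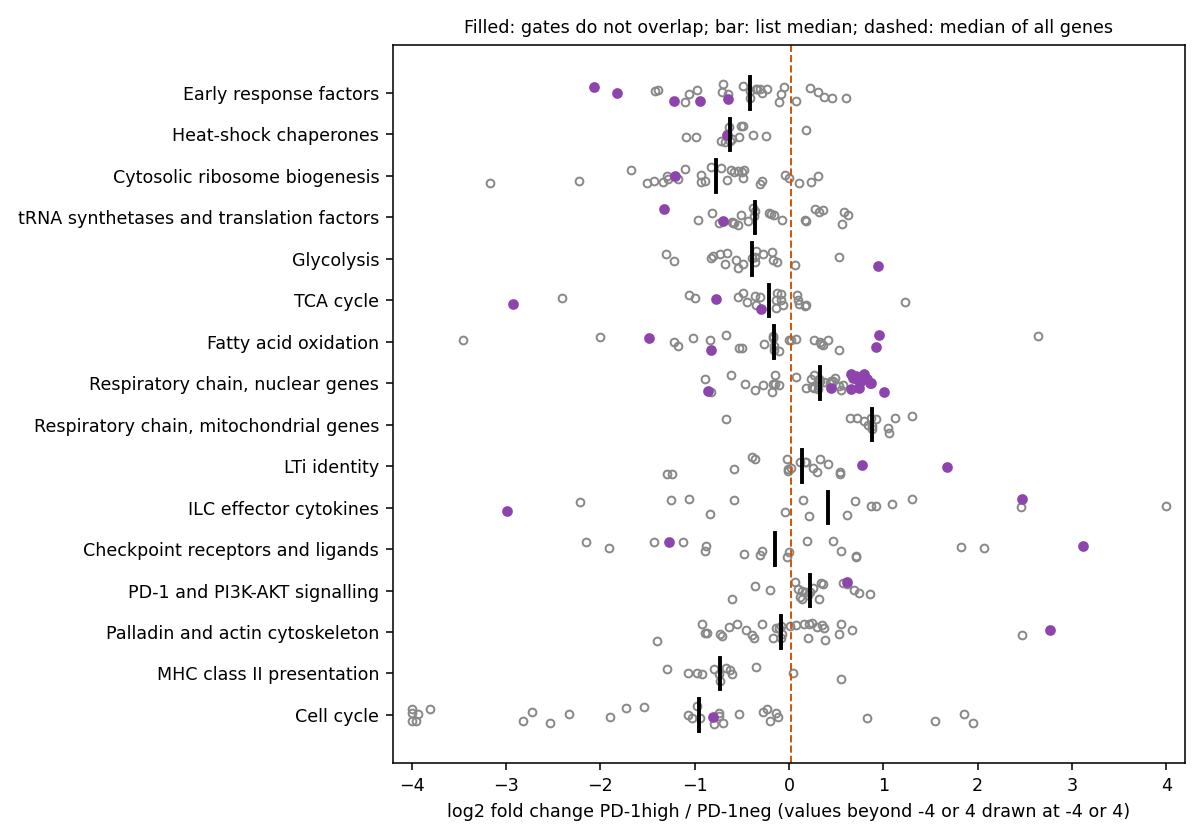
Log2 fold change of PD-1high over PD-1neg for each tested member of 16 gene lists; filled points are separated genes, black bars list medians and the dashed line the median of all tested genes (0.03). Early response, heat-shock and ribosome biogenesis genes lie mostly left of the line and nuclear respiratory chain genes mostly right of it.

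The same Pdcd1hu/- PD-1neg library carried most of the cell cycle signal. Of 32 cell cycle genes 28 lay below 0 with a median of -0.96, which was -0.13 without that library and 0.09 over the 4 Igkc-poor libraries. Ccnb1, the mitotic cyclin B1, had 119 CPM there and at most 2.50 CPM in the other 7 libraries. Ccnd2, a G1 cyclin, was separated at 138, 62.3, 131 and 112 CPM against 188, 152, 241 and 196 CPM (-0.80, SE 0.28, edgeR adjusted p = 0.656).

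Energy metabolism did not move as a block. Glycolysis genes lay below 0 in 18 of 21 cases with a median of -0.40, led by Eno1 (-0.83, SE 0.24, edgeR adjusted p = 0.547), with 416 to 742 CPM in the PD-1high gate and 724 to 1459 CPM in the other. Pfkfb3, whose product activates glycolysis through fructose 2,6-bisphosphate, was the separated member and lay higher, at 70.0, 103, 95.7 and 89.6 CPM against 48.9, 44.2, 48.7 and 43.6 CPM (0.95, SE 0.28, edgeR adjusted p = 0.565). In the TCA cycle 18 of 24 genes lay below 0 with a median of -0.22. Of the 24, 3 were separated downward, against 1.67% of all tested genes, and none upward. Idh2, the mitochondrial NADP-dependent isocitrate dehydrogenase, was separated at 9.14, 4.18, 1.88 and 4.53 CPM against 33.2, 20.9, 57.8 and 34.1 CPM (-2.93, SE 0.70, edgeR adjusted p = 0.413).

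Of 29 tested fatty acid oxidation genes 2 were separated upward and 2 downward, and of 18 genes for uptake and lipid droplets 1 upward. Of all tested genes 2.75% were separated upward and 1.67% downward. The acyl-CoA synthetases Acsl4 (0.93, SE 0.33) and Acsl1 (0.95, SE 0.38), which activate fatty acids, were separated upward. The thiolase Acaa2, which ends a round of mitochondrial beta-oxidation, was separated downward at 44.6, 45.1, 22.9 and 32.1 CPM against 79.4, 61.4, 135 and 138 CPM (-1.48, SE 0.39, edgeR adjusted p = 0.464). Slc25a20, the carnitine-acylcarnitine carrier, was the other separated member (-0.83, SE 0.42). Cpt1a, the rate-limiting carnitine transferase, did not differ by a size these data could resolve, from 25.5 to 53.9 CPM and from 26.0 to 41.2 CPM (0.08, SE 0.42). Hilpda, a lipid droplet protein that inhibits lipolysis, was separated at 942, 1884, 962 and 1519 CPM against 513, 794, 679 and 829 CPM (0.92, SE 0.27, edgeR adjusted p = 0.547). Of the 29 tested oxidation genes 12 lay above 0, with a median of -0.16. Of 18 genes for fatty acid uptake and lipid droplets, with Hilpda the separated member, 7 lay above 0 with a median of -0.15, which was 0.96 over the 4 Igkc-poor and -0.61 over the 4 Igkc-rich libraries. Acsl1 and Slc25a20 were named after their values were seen.

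Nuclear genes of the respiratory chain lay mostly on the high side, with none called. Of 43 nuclear genes 31 lay above 0, against 51.2% of all tested genes, with a median of 0.32. Among the 43, 13 were separated upward and 1, Uqcrc1, downward, against 2.75% and 1.67% of all tested genes. Their summed level overlapped between the gates, with 9169 to 12872 CPM in the PD-1high gate and 8075 to 11030 CPM in the other. Ndufa3, a complex I subunit, stood at 185, 204, 183 and 230 CPM in PD-1high and at 112, 109, 113 and 107 CPM in PD-1neg libraries (0.86, SE 0.22, edgeR adjusted p = 0.455). Cox6c, a complex IV subunit, stood at 826, 633, 673 and 818 CPM against 441, 418, 494 and 343 CPM (0.80, SE 0.21, edgeR adjusted p = 0.455). Uqcrc1, a large core subunit of complex III named after its values were seen, ran the other way (-0.86, SE 0.30). Of 13 genes encoded by mitochondrial DNA 12 lay above 0 with a median of 0.88 and none was separated. Without Pdcd1hu/+ PD-1high replicate 1, the library with the most of these transcripts, the median was 0.41. Mitochondrially encoded genes took 2.53% to 7.86% of counts in PD-1high and 1.61% to 3.86% in PD-1neg libraries.

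Gene length moved with this pattern. Among protein-coding genes with a mean of at least 10 CPM, the 190 with under 1000 bases of summed exons had a median log2 fold change of 0.40 and 13.2% were separated upward. From 1000 to 2000 bases the median was 0.07, and in the 3 classes of longer genes it was -0.12, -0.05 and 0.01. The 9 respiratory chain genes under 1000 bases had a median of 0.57 with 4 separated upward, against 0.39 and 11.6% for the 181 other short genes. The 34 longer ones had a median of 0.29 with 9 separated (26.5%). Genes under 1000 bases took 7.58% to 14.2% of counts in PD-1high and 4.61% to 9.29% in PD-1neg libraries. The part of length in the respiratory chain values was not tested.

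**Figure D3:**
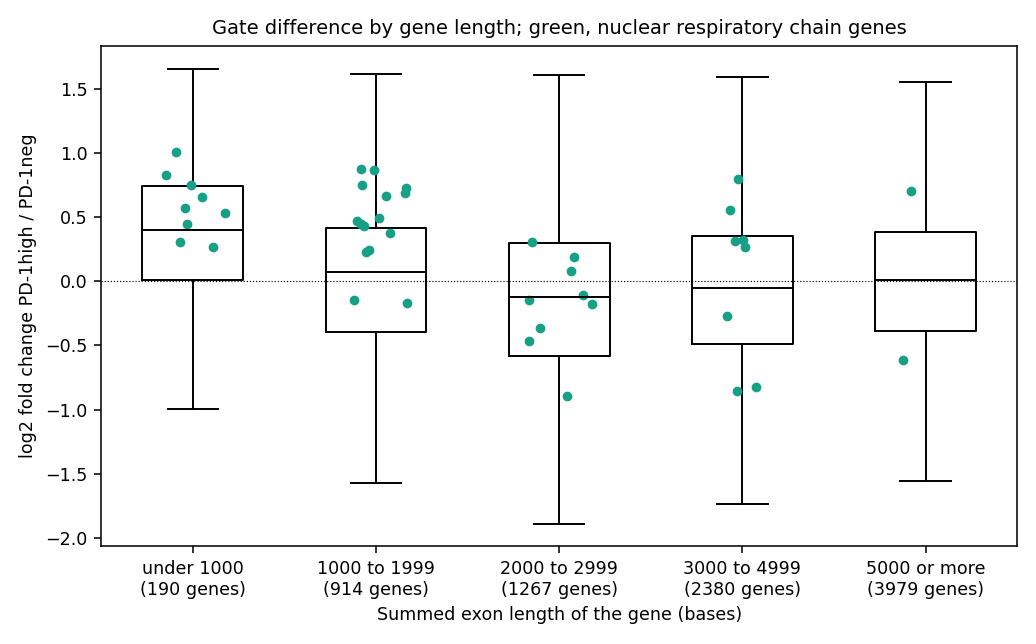
Log2 fold change of PD-1high over PD-1neg by summed exon length for protein-coding genes with a mean of at least 10 CPM; boxes span the quartiles, the line is the median and whiskers reach the last point within 1.5 box heights. Green points are nuclear respiratory chain genes; the shortest class has a median of 0.40 and the others lie near 0.

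Several genes with near-zero levels in PD-1high cells stood out on the low side. Il22ra2 encodes IL-22 binding protein, a soluble decoy receptor that blocks IL-22 and is known from dendritic cells. It had 2, 3, 0 and 1 counts in PD-1high and 4828, 56, 263 and 110 counts in PD-1neg libraries. In CPM the PD-1neg libraries stood at 232, 3.27, 12.8 and 6.19, and Pdcd1hu/+ PD-1neg replicate 1 held most of the signal. The gene did not pass (edgeR adjusted p = 0.246), and with Pdcd1hu/+ PD-1neg replicate 2 left out it did (edgeR adjusted p = 0.000913). Of 23 myeloid markers, 10 lay above 0 with a median of -0.09. Summed, they took 731 to 9528 CPM of the total in the PD-1high gate and 351 to 10195 CPM in the other, and their part in the Il22ra2 difference was not tested. Bspry, a B-box and SPRY domain protein, had 0.428, 0.610, 0.294 and 1.20 CPM in PD-1high and 11.96, 22.3, 31.1 and 25.2 CPM in PD-1neg libraries (-5.12, SE 0.96, edgeR adjusted p = 0.29).

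Tcrg-C4, a constant region of the T cell receptor gamma locus, stood at 6.57, 26.6, 7.17 and 21.4 CPM in PD-1high and at 191, 72.7, 66.1 and 131 CPM in PD-1neg libraries (-2.89, SE 0.55, edgeR adjusted p = 0.293). Tcrg-C1, another constant region of the locus and a separated T cell marker named after its values were seen, ran the other way (0.54, SE 0.22). Trdc, the delta constant region, had 56.5, 5.78, 0.908 and 0 CPM of the total in PD-1high and 31.4, 152, 54.7 and 90.2 CPM in PD-1neg libraries. The part of gamma delta T cells in the Tcrg-C4 difference was not tested. Rrad, a small GTPase, was separated at 53.3, 89.7, 58.5 and 63.7 CPM against 221, 381, 107 and 568 CPM (-2.27, SE 0.46, edgeR adjusted p = 0.336). Tuba4a (alpha-tubulin), Ap1s1 (a clathrin adaptor subunit), Adck5 (an atypical kinase) and Cdk11b (a transcription-linked kinase) completed the 12, at -1.36 (SE 0.27), -1.87 (SE 0.40), -2.49 (SE 0.54) and -1.06 (SE 0.23).

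Cytokine-sensing and antigen presentation genes gave smaller differences. Il18r1, a chain of the IL-18 receptor, was separated at 50.8, 49.98, 27.1 and 38.7 CPM against 215, 76.3, 60.9 and 92.4 CPM (-1.38, SE 0.36, edgeR adjusted p = 0.464), and Tiparp, a target of the aryl hydrocarbon receptor, at 177, 158, 239 and 149 CPM against 395, 346, 282 and 246 CPM (-0.79, SE 0.25). MHC class II genes, which some LTi cells use to present antigen, lay below 0 in 11 of 13 cases with a median of -0.73. No member was separated, and the median was 0.16 over the 4 Igkc-rich libraries. H2-Ab1 stood at 755, 413, 438 and 373 CPM against 1996, 393, 568 and 960 CPM. Of 24 interferon-stimulated genes 12 lay above 0, with a median of 0.05 that was 0.55 over the 4 Igkc-poor libraries.

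The genotypes give 2 estimates of the gate difference that share no library. Across all 18862 genes the log2 fold changes of Pdcd1hu/+ and Pdcd1hu/- cells had Pearson r = 0.0652 and Spearman rho = 0.102. At a mean of at least 10 CPM (9114 protein-coding and other genes) they were 0.134 and 0.224, and at 100 CPM (1802 genes) 0.218 and 0.501. The sign was the same in 54.5%, 59.0% and 68.1% of these genes. These are descriptions across genes, which are not independent. The interaction of gate and genotype gave 0 calls with edgeR, a share of 0%, and 709 genes (3.76%) had an unadjusted p under 0.05. DESeq2 gave 189 calls and limma-voom 0.

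**Figure D4:**
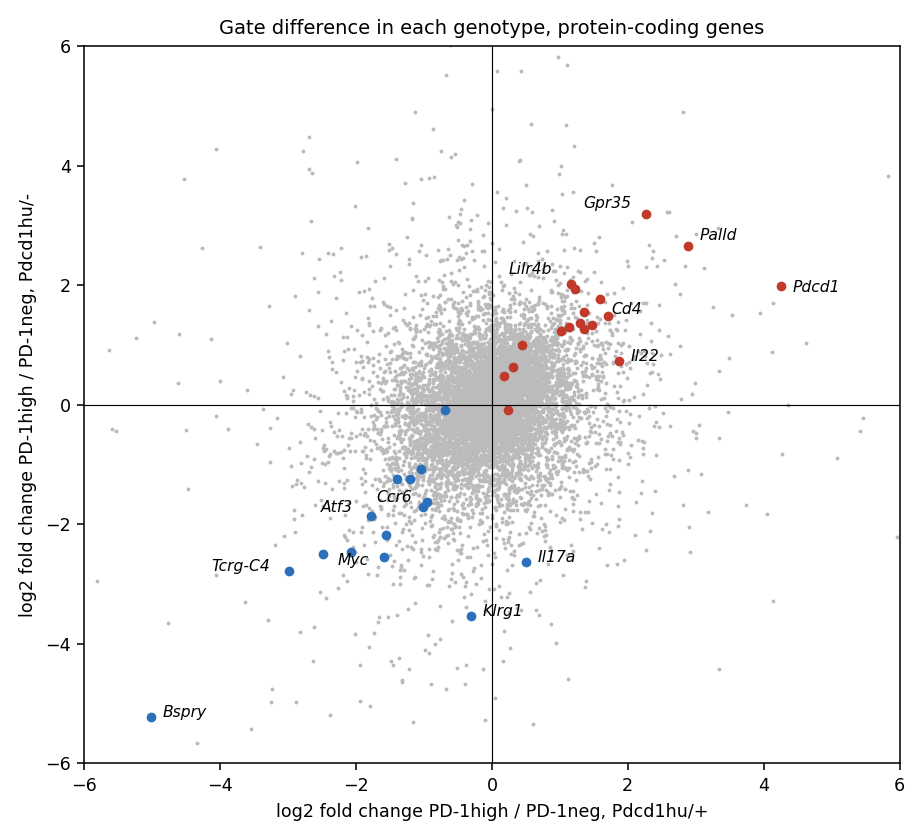
Log2 fold change of PD-1high over PD-1neg in Pdcd1hu/+ (horizontal) and Pdcd1hu/- cells (vertical). Grey points are protein-coding genes with a mean of at least 10 CPM, red and blue points named genes with a positive or negative fold in the joint fit; Palld lies at 2.88 and 2.65, and Il17a and Klrg1 lie far from the diagonal.

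Markers of other cell types varied widely between libraries of the same gate, and the summed levels of the lists given here overlapped between the gates. On the scale of library totals, B and plasma cell markers summed to 747 to 91682 CPM in the PD-1high gate and 1138 to 38601 CPM in the other. Epithelial markers summed to 17.9 to 45.0 CPM and 17.96 to 5937 CPM, stromal and endothelial markers to 876 to 2936 CPM and 345 to 4213 CPM, and erythroid markers to 37.6 to 8154 CPM and 5.89 to 740.4 CPM. Stromal and endothelial markers lay above 0 in 19 of 20 cases (median 1.46) and in 8 of 20 (median -0.13) without Pdcd1hu/- PD-1high replicate 1. Erythroid markers lay above 0 in 5 of 6 cases, with a median of 5.23 that ranged from 4.22 to 6.42 with 1 library left out. Epithelial markers lay below 0 in 12 of 15 cases, with a median of -2.73 that ranged from -4.78 to -0.84. The part of these cell types in the gate differences was not tested. Hba-a1 has a close copy, Hba-a2, so its count is uncertain. The defining mast cell marker Cpa3 was at 0 in 4 libraries and the ILC2 marker Il1rl1 in 3, while Jchain, Lyz2, Epcam, Col1a1, Hba-a1 and Ncr1 were present at some level in all 8.

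Splitting each group by Igkc gave 2 sets of 4 libraries with 1 residual degree of freedom each. The Igkc-poor set gave 413 calls with edgeR (308 higher and 105 lower in PD-1high cells) and the Igkc-rich set 126 (22 higher and 104 lower). Of these, 42 genes were called in both sets, 10.2% and 33.3% of each list, and for 40 of the 42 the direction was opposite. Palld (2.46 and 3.00) and Ly6a (1.49 and 1.61) were the 2 with the same direction. Both were separated over all the libraries, which fixed their direction in each set, so their shared direction is a description. The opposite calls included the keratins Krt13 and Krt14, the neutrophil genes S100a8 and S100a9, Cd14 and the matrix genes Sparc and Col4a1.

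**Figure D5:**
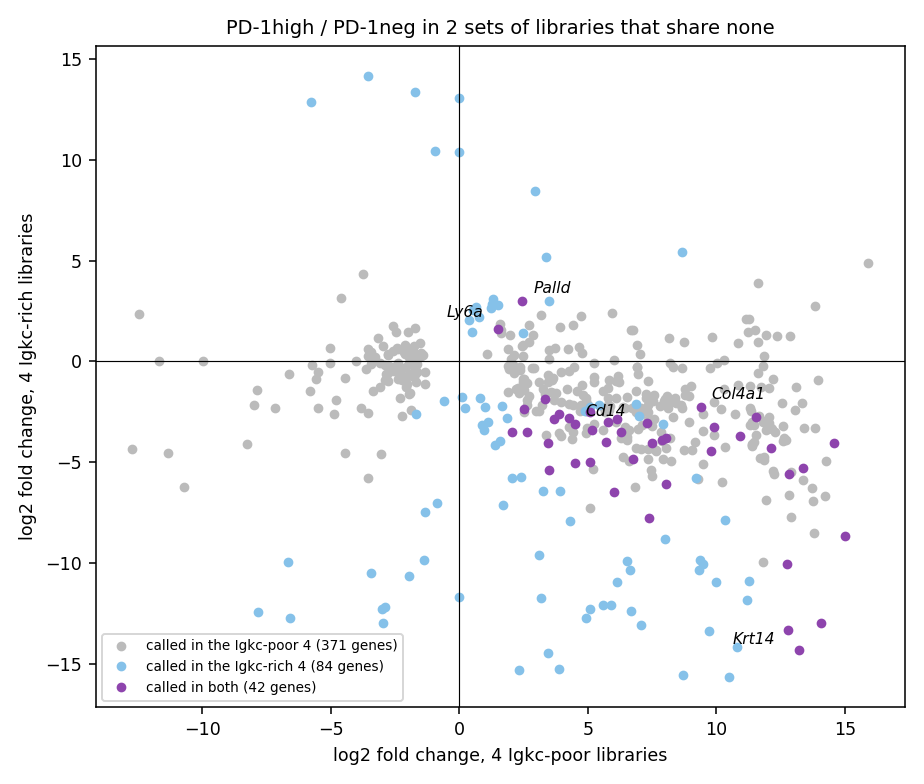
Log2 fold change of PD-1high over PD-1neg in the 4 Igkc-poor (horizontal) and the 4 Igkc-rich libraries (vertical) for genes called in either set. Purple points are the 42 genes called in both; Palld and Ly6a lie in the upper right and the other 40 in the lower right.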

How the data were processed

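The 8 colonic files held read counts per gene, which the authors deposited unnormalized and had made, per the submitters' processing notes, with HISAT2 2.1.0 and featureCounts on mm10. Whether strand was used is not given in the sources used here, so overlapping and antisense genes may share reads. The labels' protocols name the SMART-Seq HT kit for cDNA. The counts are not of unique molecules. Symbols came from a palmitic acid file of the series.

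Counts were tested with edgeR 4.0.16 in R 4.3.3 (quasi-likelihood F-test, robust; genotype and gate as terms, 5 residual degrees of freedom). TMM scaling, filterByExpr (18862 of 55573 genes kept) and Benjamini-Hochberg adjustment at 0.05 were used. The interaction came from 4 group means. SE is the fold change divided by the root of F. DESeq2 1.42.0, limma-voom (limma 3.58.1), other scalings, filters and library sets were alternatives. The test was checked on simulated counts.

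Named genes were 12 chosen genes (1 is not reported here), the 12 separated genes (symbols that are clone names or accessions left out) in each direction with a mean of at least 10 CPM and the smallest p, and the 2 members of each of 22 lists with the smallest p. Others are said to be named after their values were seen. Fyn, Tox, Lilrb4a, Trac and Trdc were given without that remark and were also outside these rules. The comparison, genes and lists were chosen with earlier results of these data known. No column belonged to another series (0 found).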

Additional observations from a re-analysis of the deposited data

Results flagged for a closer look

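Among 156 groups of 4 libraries (named genes and marker sums in each gate), 23 (14.7%) held a library that stood apart. Its gap to the nearest other, over the range, exceeded Dixon's 95% critical value. Chance does this in about 1 in 20 independent groups of normally distributed values. These groups shared libraries and held unlogged CPM, so the share cannot be read as an excess over that rate. No explanation was tested.

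In PD-1high cells, Pdcd1hu/+ replicate 1 stood high for Il22 (39793 CPM), H2-Ab1 (755 CPM) and Adck5 (18.1 CPM) and low for Gpr35 (47.9 CPM). Pdcd1hu/+ PD-1high replicate 2 stood high for Cd96 (119.6 CPM, others 73.8 to 75.8 CPM) and Il10 (46.1 CPM, others 0 to 1.44 CPM), and low for Hacd3 (130.0 CPM) and Tox2 (136 CPM). Its myeloid marker sum was 9528 CPM of the total, against 731 to 2197 CPM in the other PD-1high libraries. Pdcd1hu/- PD-1high replicate 1 stood apart for Cdk11b (249 CPM, others 158 to 159 CPM), for Cd274 (37.0 CPM, others 80.2 to 83.8 CPM) and for Ccnb1, at 0.0587 CPM or 1 count where the others were at 0. Pdcd1hu/- PD-1high replicate 2 stood high for Ostf1 (2204 CPM), Itgal (568 CPM) and Wdr43 (49.2 CPM).

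In PD-1neg cells, Pdcd1hu/+ replicate 1 stood high for Il22ra2 (232 CPM, others 3.27 to 12.8 CPM). Pdcd1hu/+ PD-1neg replicate 2 stood high for Gpr35 (17.0 CPM) and Il10 (0.351 CPM) and for 3 marker sums on the scale of library totals: epithelial (5937 CPM), stromal and endothelial (4213 CPM) and erythroid (740.4 CPM). Pdcd1hu/- PD-1neg replicate 1 stood high for Ccnb1 (119 CPM, others 0 to 2.50 CPM), and Pdcd1hu/- PD-1neg replicate 2 low for mt-Co2 (20.2 CPM, others 36.1 to 39.1 CPM).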

How the results depend on the processing

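The number of genes called between the gates was 1 with edgeR as reported. It was 156 (70 higher, 86 lower) with no filter on low counts, 242 (102 higher, 140 lower) with DESeq2, 0 with limma-voom, 413 without the Igkc-rich library of each group and 126 without the Igkc-poor library of each group, a set chosen after seeing the data. Leaving out each library in turn gave 0 to 3 calls. It gave 0 without Pdcd1hu/+ PD-1high replicate 1, Pdcd1hu/- PD-1high replicate 2 or either Pdcd1hu/- PD-1neg replicate, 1 (Ighg2b in place of Palld) without Pdcd1hu/- PD-1high replicate 1, 2 (Palld and Idi2) without Pdcd1hu/+ PD-1neg replicate 1 and 3 (Palld, Il22ra2 and Gm10800) without Pdcd1hu/+ PD-1neg replicate 2. The interaction went from 0 calls to 15 with no filter and 189 with DESeq2, and stayed at 0 in every leave-one-out fit; it could not be fitted for the Igkc sets.

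Replicate numbers were shared by the groups but did not pair them by the labels: deviations of same-numbered libraries correlated at 0.0686 in Pdcd1hu/+ and 0.108 in Pdcd1hu/- cells. With the replicate block by number 1 gene was called and 0 for the interaction, and with the block by genotype and number 4 (Palld, Mmp3, Krt7 and Krt18).

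Of 69 named genes, 64 never changed sign, 24 of which were chosen for their separation. Others of the 64, such as Pdcd1, Lif and Tox2, were separated too, and separation fixes the sign in fits on fewer libraries. Most of the rest were chosen for a small p, so this count is no measure of stability. Over the Igkc-rich libraries the sign turned for H2-Ab1 (0.16), Klrg1 (0.26), Ccr6 (0.63) and Cpt1a (-0.15), and over the Igkc-poor libraries for Il22 (-0.16). Cpt1a also turned with library totals alone (-0.022) and in 3 leave-one-out fits (-0.18, -0.07 and -0.000211), which ranged from -0.18 to 0.23. The cause was not tested.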
